A study of Mus musculus with 6 samples.

Results

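The genes described are 10 immunoglobulin-type cell adhesion molecules of the mouse: Vcam1, Icam1, Icam2, Alcam, Ncam1, L1cam, Mcam, Bcam, F11r and Cadm1. They were chosen by symbol, as all probes whose annotated transcript belongs to one of these genes, which gave 18 of the 56605 probes on the array and 10 of the 22911 genes that could be named. RNA came from pulsed radiofrequency (PRF) cells, which are C8D1A cells given short bursts of high-frequency current, and from control cells of the same line left untreated. C8D1A is a cloned mouse astrocyte line, so all 6 arrays stem from 1 clone. Per the labels, cells of both groups grew in medium with 10% serum for 6 days and spent a further 24 h in serum-free medium before use. Each group had 3 arrays, 1 for each of 3 independent experiments. The sources used here do not give the current settings, the length of the stimulation or the delay until RNA was taken.

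Adhesion molecules of this type are membrane proteins built from a row of immunoglobulin domains outside the cell, a membrane anchor and a short tail that binds the cytoskeleton. Some of them, such as Vcam1, Icam1 and Icam2, hold leukocytes by binding their integrins, and in endothelial cells Vcam1 and Icam1 are known to be induced by inflammatory cytokines through NF-kB. Others, such as Ncam1, L1cam, Alcam and Cadm1, bind copies of themselves or of each other on a neighbouring cell and are known from axon growth and synapse contact, and F11r, Mcam and Bcam are known from cell junctions, vessels and basement membrane.

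After PRF, Vcam1 was 2.95-fold higher and Alcam 1.38-fold higher, and Mcam was 1.33-fold lower. Icam2, Ncam1, L1cam, Bcam, F11r and Cadm1 did not pass the test, and the Icam1 probe stayed at background throughout. With 1 probe standing for each gene, 2 of the 9 tested members were called higher and 1 lower. Among all 15069 tested genes 29.8% were called, 16.3% higher and 13.5% lower, so the members' shares lay near those of the array as a whole. Among the 16 tested member probes 3 were called higher and 1 lower, where 31.1% of all tested probes were called, 18.4% higher and 12.7% lower. The median change of the 9 genes was 0.18 on the log2 scale, against -0.0059 over all tested genes. In an extract of whole cultures, a change in the share of cells that carry an RNA and a change in RNA per cell cannot be told apart.

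Promoter stretches in the RefSeq table (build GRCm38.p6) were at hand for 6 of the 10 genes. Of these, 3 are shown: Icam1, because it is a well-known target of NF-kB, and Alcam and Mcam, because their levels changed. Each runs over the 160 bases before the annotated start, chr9:21015780-21015939 on the plus strand for Icam1, chr16:52453082-52453241 on the minus strand for Alcam and chr9:44134498-44134657 on the plus strand for Mcam. Capitals mark letters that match a searched motif on either strand, and overlapping matches run together.
Icam1: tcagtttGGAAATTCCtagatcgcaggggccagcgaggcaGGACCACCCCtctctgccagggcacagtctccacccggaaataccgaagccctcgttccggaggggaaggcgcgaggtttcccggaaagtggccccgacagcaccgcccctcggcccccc
Alcam: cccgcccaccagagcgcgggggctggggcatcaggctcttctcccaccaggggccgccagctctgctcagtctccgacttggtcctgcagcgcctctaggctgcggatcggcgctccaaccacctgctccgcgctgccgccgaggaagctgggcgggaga
Mcam: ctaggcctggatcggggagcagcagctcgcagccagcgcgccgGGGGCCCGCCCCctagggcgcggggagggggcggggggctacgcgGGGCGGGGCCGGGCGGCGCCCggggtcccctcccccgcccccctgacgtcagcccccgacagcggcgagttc

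The search ran over the 300-base windows of the table, 250 bases before to 50 after each start, on both strands, with windows of 6 member genes among 32851. A loose kappa B pattern, GGG and CC with any 5 bases between them, occurred in 5 of the 6 genes, Alcam being the exception, and in 50.8% of all windows. The letters GGAAATTCC, a kappa B variant that the loose pattern does not cover, occurred in Icam1, with their first base at -153. They occurred in 0.317% of all windows. The AP-1 letters TGANTCA occurred in F11r, at -109, and in 7.81% of all windows. These matches describe the letters and do not show that a factor binds there.

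Between 35146 and 36191 probes were well above background on the PRF arrays (62.1% to 63.9%) and between 33670 and 34642 on the control arrays (59.5% to 61.2%). Precision is limited by having 3 arrays in each group, and p-values measure the spread between these experiments. Probes entered the test where every array of 1 group or of both had them well above background. The 16 tested member probes met this on all 6 arrays, so none of them entered through 1 group alone. Of 10 astrocyte markers 8 were above background on all arrays, among them Gfap, Aqp4 and Aldh1l1, and Slc1a3 and Gja1 were above it on none. Gfap, Aqp4 and Aldh1l1 were dim, with signals before scaling of at most 163, 38.0 and 124 summed over their probes. S100b made up at least 89.6% of the summed signal of the astrocyte list. Also above background on all arrays were 7 of 8 oligodendrocyte and 6 of 8 mural and fibroblast markers. So were 4 of 8 neuronal, 4 of 8 microglial and leukocyte and 3 of 8 endothelial markers. An incomplete set of astrocyte markers was thus detected beside markers of other cell types.

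Levels are given as log2 signal relative to the 75th percentile of the same array, so a level of 0 equals that percentile. They can be compared between arrays for 1 probe but not between genes, since probes differ in brightness. Differences are PRF minus control on the same log2 scale and were tested with limma, with p-values adjusted over all 34838 tested probes by the Benjamini-Hochberg method and a threshold of 0.05.

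**Figure D1:**
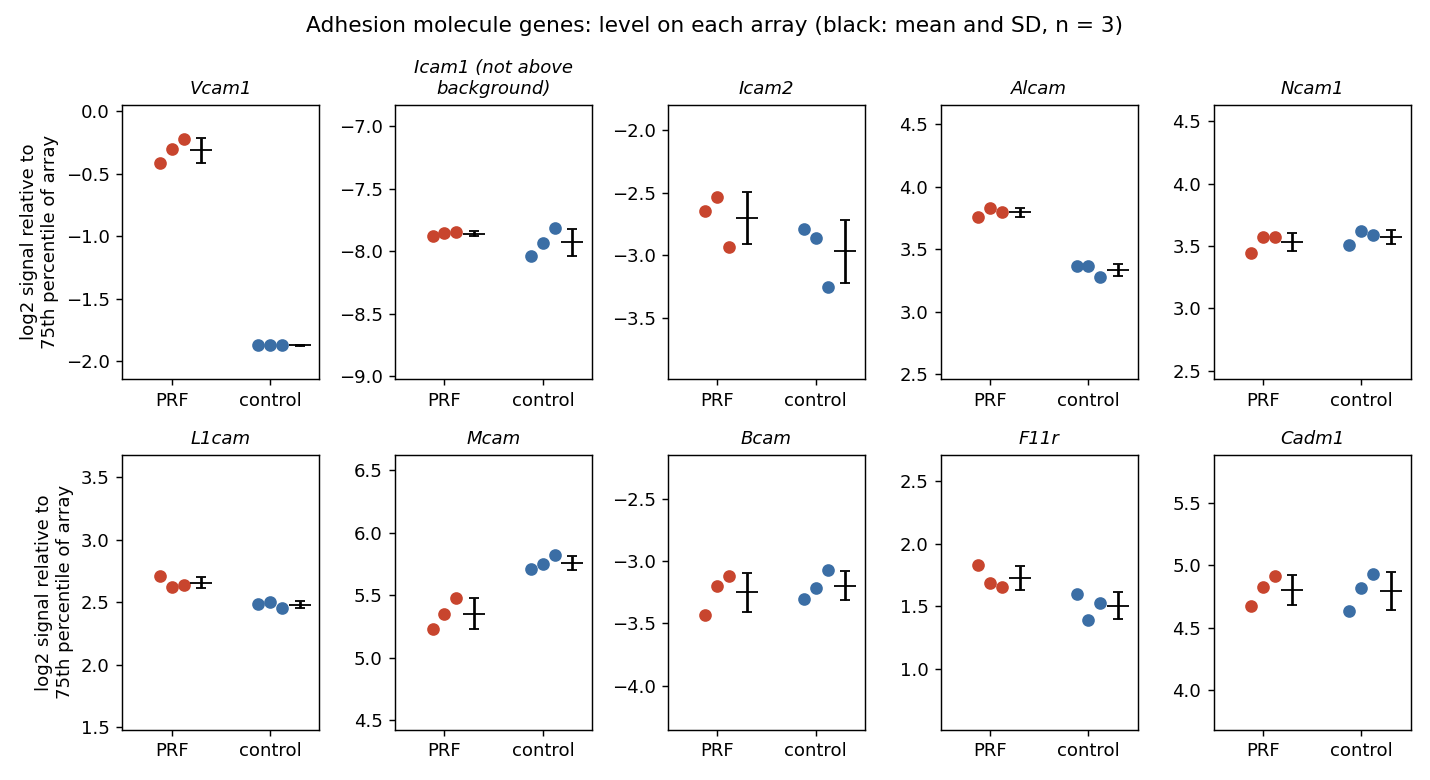
Level of each of the 10 genes on each array, in log2 signal relative to the 75th percentile of the array, with the brightest tested probe standing for its gene. Red points are PRF arrays and blue points control arrays in the order of replicates 1 to 3, black marks give the mean and SD (n = 3), and every panel spans the same height. The groups stand far apart for Vcam1, apart by less for Alcam, Mcam, L1cam and F11r, and overlap for Icam2, Ncam1, Bcam and Cadm1, while Icam1 was not above background.

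Among the leukocyte-binding members, Vcam1, the ligand of integrins that contain the Itga4 chain, changed most. Its levels were -0.42, -0.30 and -0.22 in PRF cells, against -1.88, -1.88 and -1.87 in control cells. The corresponding signals before scaling were 475, 441 and 475 on the PRF arrays, against 184, 173 and 163 on the control arrays. Every PRF array lay above every control array on either scale, and the control levels were nearly identical. The difference was 1.56 (SE 0.07, adjusted p = 8.12e-05), and 5.48% of all tested probes had a larger rise. Array row on the slide, which put controls 1 and 3 with PRF 2 and control 2 with PRF 1 and 3, left the size of the difference as it was, with 1.57 within row 1 and 1.56 within row 2. Within row 2, where 3 arrays remain, the adjusted p was 0.063.

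The further Vcam1 probe stayed at background on all 6 arrays and was not tested. Its levels were -5.75, -6.56 and -5.91 in PRF cells, against -6.93, -6.70 and -7.92 in control cells. The groups did not overlap on this scale but did before scaling, with signals of 11.8, 5.78 and 9.21 on the PRF arrays, against 5.53, 6.10 and 2.47 on the control arrays. All 6 levels lay below the lowest level of any probe above background on the same array, which ran from -5.89 to -5.66, so no fold is given. Nothing in the files gives the place of either probe on the Vcam1 transcript.

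Icam1, the receptor of leukocyte integrins that contain the Itgb2 chain, gave no signal above background. Its probe read 2.69, 2.36 and 2.41 on the PRF arrays, against 2.57, 2.60 and 2.65 on the control arrays, where the 75th percentile of the signal lay between 544 and 674. The values do not separate the groups, and with this probe any Icam1 RNA was below what the array could measure. Icam2, a relative of Icam1 that is known as a constitutive molecule of endothelium and platelets, had levels of -2.65, -2.53 and -2.93 in PRF cells, against -2.79, -2.86 and -3.26 in control cells. Its groups overlapped, and the difference of 0.27 (95% confidence interval -0.12 to 0.65) did not pass (adjusted p = 0.247).

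Because these 3 genes are also known from endothelium, endothelial markers are set beside them. Of 8 such markers 3 were above background on all arrays, and Cdh5, Cldn5 and Emcn were above it on none. Tek was above it on 1 PRF array and on no control array, and was not tested. Its levels were -5.35, -5.94 and -6.86 in PRF cells, against -7.67, -8.05 and -7.95 in control cells. Of the 4 that were tested, Kdr was above background on every PRF array and on no control array and was called higher. Esam differed by 0.78 (adjusted p = 0.0568), Flt1 by 0.016 and Pecam1 by -0.089, and none of these 3 passed. The median difference of the 4 was 0.40, and 0.016 over the 3 that were above background on all arrays. The signal summed over all probes of the list before scaling ran from 4617 to 5153 on the PRF arrays, against 4855 to 5529 on the control arrays, and Flt1 made up at least 96.0% of it. Without Flt1 it ran from 133 to 194 on the PRF arrays, against 106 to 136 on the control arrays. Their part in the rise of Vcam1 was not tested.

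Alcam, which binds itself and the lymphocyte receptor Cd6, was the other member that rose. Its brighter probe had levels of 3.76, 3.83 and 3.80 in PRF cells, against 3.37, 3.37 and 3.28 in control cells, and on its dimmer probe 0.62, 0.71 and 0.69 in PRF cells, against 0.48, 0.41 and 0.43 in control cells. The groups did not overlap on either probe. The difference was 0.46 on the brighter probe (SE 0.06, adjusted p = 0.00323) and 0.24 on the dimmer one (SE 0.06, adjusted p = 0.0313). Without any scaling of the arrays both calls were lost, with differences of 0.32 (adjusted p = 0.0648) and 0.097 (adjusted p = 0.527). The dimmer probe's call was also lost with the arrays scaled to their spike-in controls (0.044, adjusted p = 0.651), and without each single array except PRF replicate 1, with adjusted p-values between 0.066 and 0.102.

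The 2 Alcam probes differed in the size of their change by 0.22 on the log2 scale. The gap between them was 3.12 ± 0.018 on the PRF arrays, against 2.90 ± 0.050 on the control arrays (SD, n = 3 each), without overlap. An exact two-sided permutation test gave p = 0.1, the smallest that 3 arrays against 3 allow (0.4 after adjustment over 4 genes whose probes were compared in this way).

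Ncam1, the neural cell adhesion molecule, binds itself on the opposite cell and carries polysialic acid in the developing brain. It had 4 tested probes, 2 annotated to each of 2 transcripts, and none passed. The brightest, annotated to NM_001113204, had levels of 3.45, 3.57 and 3.57 in PRF cells, against 3.51, 3.62 and 3.59 in control cells, a difference of -0.039 (95% confidence interval -0.21 to 0.13). The other probe of that transcript differed by -0.08, and the 2 probes of NM_010875 by 0.07 and 0.098, with adjusted p-values from 0.568 to 0.705 over the 4. All 4 Ncam1 probes were lowest on PRF replicate 1 among the PRF arrays. The change of the NM_010875 probes exceeded that of the NM_001113204 probes by 0.14, with overlapping groups (exact two-sided permutation p = 0.2, adjusted p = 0.4). With 3 arrays per group this test can give no p below 0.1, so it cannot decide whether the balance of these transcripts changed.

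L1cam, a molecule of growing axons that binds itself and other partners, differed in the same direction on each of its 3 probes. The brightest had levels of 2.71, 2.62 and 2.64 in PRF cells, against 2.49, 2.50 and 2.45 in control cells, which do not overlap. Its difference of 0.18 (SE 0.06) did not pass (adjusted p = 0.0749), nor did those of 0.13 and 0.28 on the dimmer probes (adjusted p = 0.401 and 0.189). With the 3 probes averaged before the fit, L1cam was called higher (0.19, adjusted p = 0.0269), and with normexp background correction the brightest probe was called (0.19, adjusted p = 0.0415). With spike-in scaling that probe's difference was -0.018 (adjusted p = 0.866), and with normexp those of the dimmer probes were -0.018 and -0.050, so the direction depends on the processing.

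Cadm1, a homophilic molecule of synapses and epithelia, had levels of 4.67, 4.82 and 4.91 in PRF cells, against 4.63, 4.82 and 4.93 in control cells on its brighter probe. The arrays of the groups interleave, and the difference of 0.0085 (95% confidence interval -0.24 to 0.26) was smaller than the spread of either group (SD 0.12 in PRF and 0.15 in control cells, n = 3 each). On the dimmer probe the difference was 0.055 (adjusted p = 0.691).

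**Figure D2:**
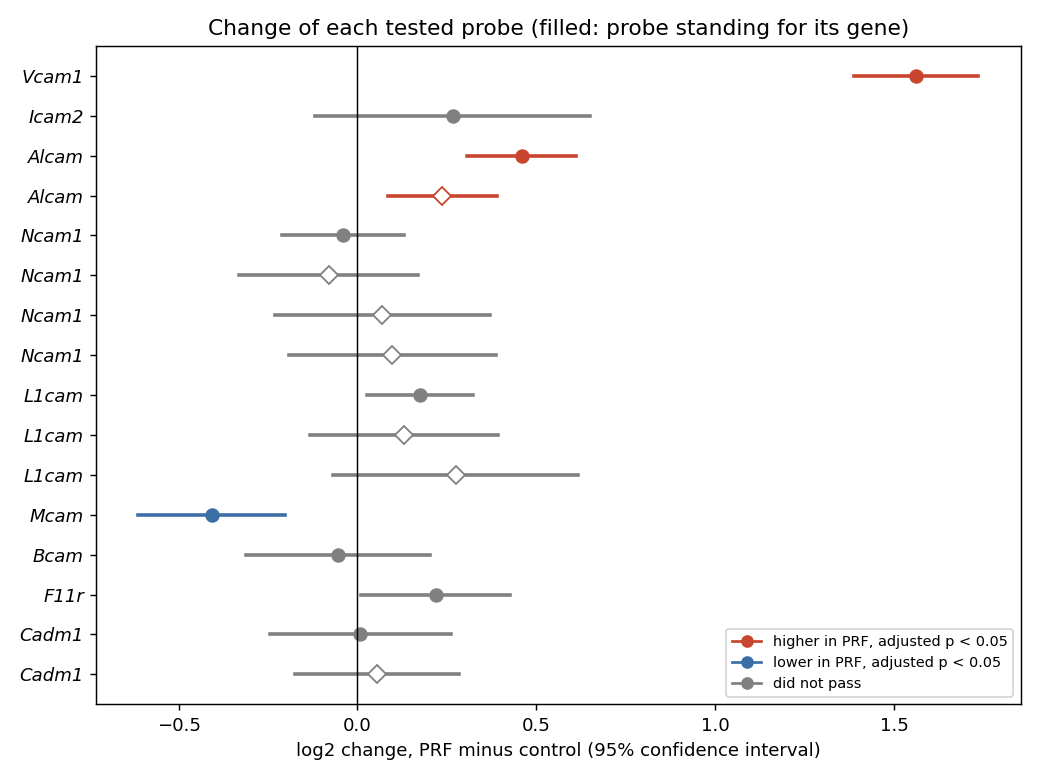
Difference between PRF and control cells for each of the 16 tested probes, on the log2 scale, with 95% confidence intervals from the limma fit. Filled circles stand for their gene and open diamonds are further probes of it; red marks rises and blue falls past the adjusted threshold, grey marks probes that did not pass. Vcam1 lies at 1.56, the Alcam probes at 0.46 and 0.24 and Mcam at -0.41, and the 12 grey probes have intervals no higher than 0.65.

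Mcam, a molecule of vessel walls and melanoma cells that binds laminins and galectins, was the member that fell. Its levels were 5.23, 5.35 and 5.48 in PRF cells, against 5.71, 5.75 and 5.82 in control cells. Signals before scaling were 23723, 22203 and 24629 on the PRF arrays, against 35277, 34099 and 33692 on the control arrays, so the groups were apart on that scale too. The difference was -0.41 (SE 0.08, adjusted p = 0.0143), and no Mcam spot was saturated. When PRF replicate 2 was left out it missed the threshold (-0.41, adjusted p = 0.0507), and likewise when control replicate 3 was (-0.38, adjusted p = 0.0512). Its largest size under another scaling was -0.60, with the spike-in controls (adjusted p = 0.00323).

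Because Mcam is known from pericytes as well, mural and fibroblast markers are set beside it. Of 8 such markers 6 were above background on all arrays, the collagen gene Col3a1 rose by 0.52 (adjusted p = 0.00854), and Pdgfrb, the receptor by which pericytes are known, fell by 0.32 (adjusted p = 0.0458). The call of Pdgfrb depended on each array except PRF replicate 3, with adjusted p-values between 0.0837 and 0.136 when one of the others was left out. Col1a1 was called as well (0.44, adjusted p = 0.0383), but it lost that call under 15 of 18 alternatives, the 5 other scalings among them, and its further probe did not pass (0.40, adjusted p = 0.0523). Cspg4 differed by 0.37 (adjusted p = 0.0767), Des by 0.38 (adjusted p = 0.294) and Dcn by 0.34 (adjusted p = 0.366), and none of these passed. The median difference of the 7 tested markers was 0.37, and 0.35 over the 6 that were above background on all arrays. The signal summed over all probes of the list before scaling ran from 11656 to 13927 on the PRF arrays, against 13188 to 14106 on the control arrays, and Acta2, with a difference of 0.009, made up at least 78.8% of it. Their part in the fall of Mcam was not tested.

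Bcam, the receptor of the laminin chain Lama5, had levels of -3.43, -3.20 and -3.12 in PRF cells, against -3.30, -3.22 and -3.07 in control cells. The groups overlapped and the difference was -0.054 (95% confidence interval -0.31 to 0.20, adjusted p = 0.732). F11r, the junctional adhesion molecule A of tight junctions, had levels of 1.83, 1.69 and 1.65 in PRF cells, against 1.60, 1.39 and 1.53 in control cells. Every PRF array was above every control array, but the difference of 0.22 (SE 0.09) did not pass (adjusted p = 0.102), and it was 0.026 with spike-in scaling. In all, the groups did not overlap for 5 of the 9 tested genes, where this held for 51.1% of all tested genes, and for 6 of the 16 tested probes, where it held for 50.2% of all tested probes.

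The scale of the arrays shifted all members together. Over all tested probes the median difference was 0.018 with the 75th percentile, -0.12 without scaling and -0.18 with spike-in scaling, and over the 9 members it was 0.18, 0.035 and -0.018 in the same order. Rises made up 59.2% of all called probes with the 75th percentile, 38.3% without scaling and 28.9% with spike-in scaling. The rise of Vcam1 lay between 1.20 and 1.56 and the fall of Mcam between -0.60 and -0.41 over 6 scalings, normexp background correction among them, and both were called under each of them. The brighter Alcam probe was called under 5 of them and missed without scaling.

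**Figure D3:**
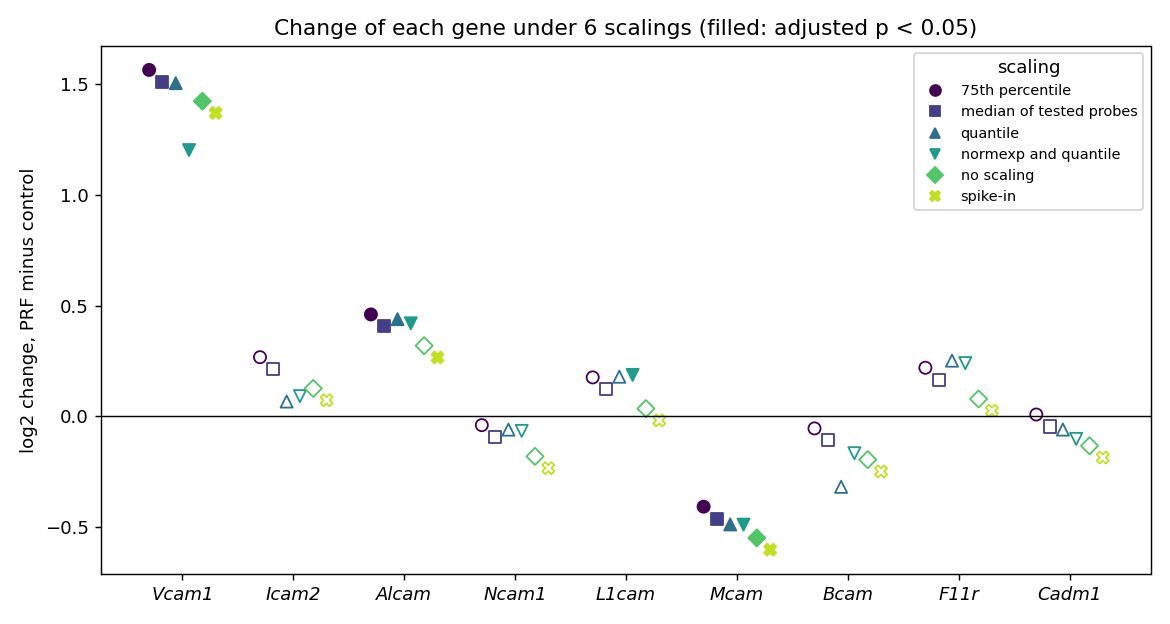
Difference between PRF and control cells, on the log2 scale, for the standing probe of each of the 9 tested genes under 6 scalings of the arrays. Filled symbols passed the adjusted threshold of 0.05 and open ones did not. Vcam1 stays above 1.20 and Mcam at or below -0.41, Alcam is open only without scaling, L1cam is filled only with normexp, and L1cam and Cadm1 have values on both sides of 0.

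Genes that work with these molecules were taken from lists, with the brightest tested probe standing for a gene. Their counts are to be read against the 16.3% of all tested genes that were called higher and the 13.5% that were called lower. Of 17 tested binding partners outside the cell 6 were called higher and 2 lower, with a median difference of 0.19. Without Itgax, which was above background only on PRF arrays, 5 of 16 were called higher and the median was 0.12. Crtam, a lymphocyte receptor of Cadm1, had levels of -1.33, -1.66 and -1.82 in PRF cells, against -4.75, -4.26 and -4.78 in control cells, and was 7.98-fold higher (adjusted p = 1.80e-04). Itgb7, an integrin chain that pairs with Itga4, was 2.44-fold higher (adjusted p = 9.71e-05), and Cd6, the receptor of Alcam, 2.01-fold higher (adjusted p = 9.22e-04). Their levels were low, with control means of -4.60, -5.21 and -3.84, and with normexp background correction their rises on the log2 scale were 1.42 for Crtam, 0.24 for Itgb7 and 0.36 for Cd6. Itgam, an integrin chain that binds Icam1, was 1.81-fold higher (adjusted p = 0.00406), and Lgals3, a galectin, 1.41-fold (adjusted p = 0.0337). In this list both were named after their values were seen, as was Itgax, which is given in the closing section.

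Itgb3, an integrin chain of the vitronectin receptor, and Lama5 were the partners that fell, by 0.48 (adjusted p = 0.0139) and 0.28 (adjusted p = 0.0386) on the log2 scale. The call of Lama5 likewise depended on each array except PRF replicate 3, with adjusted p-values between 0.0762 and 0.114. Itgb1, the common integrin chain that pairs with Itga4, had levels of 5.86, 5.84 and 5.94 in PRF cells, against 5.66, 5.78 and 5.62 in control cells, and did not pass (difference 0.19, adjusted p = 0.0932). The brighter Itga4 probe stayed at background on all 6 arrays. The chains of the main Icam1 receptor, Itgal and Itgb2, differed by 0.33 (adjusted p = 0.17) and 0.20 (adjusted p = 0.452). With array row as a block Itgal was called higher (0.44, adjusted p = 0.0488). Itgam is also a marker of microglia and leukocytes, and 4 of 8 such markers were above background on all arrays. Itgam was the one called, while Cd68 differed by 0.36 (adjusted p = 0.0577), Csf1r by 0.16 (adjusted p = 0.184) and Tmem119 by -0.25 (adjusted p = 0.0601). The signal summed over all probes of the list before scaling ran from 11202 to 15913 on the PRF arrays, against 9004 to 9719 on the control arrays. Itgam made up between 52.8% and 68.7% of it, and without Itgam it ran from 4204 to 4981 on the PRF arrays, against 3710 to 4382 on the control arrays, which overlap. Ptprc, Aif1, Cx3cr1 and P2ry12 were above background on no array, and the part of such cells in the rises was not tested.

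Of 39 further immunoglobulin-type molecules 24 were tested, and 3 were higher and 2 lower, where 29.8% of all tested genes were called, with a median difference of -0.0027. One of the 3, Cntn1, was above background only on PRF arrays. Over the 22 relatives above background on all 6 arrays, 2 were higher and 2 lower, with a median of -0.0077. Lsamp, a molecule of limbic neurons, was 3.33-fold higher, with levels of 1.43, 1.48 and 0.20 in PRF cells, against -0.48, -0.88 and -0.74 in control cells (adjusted p = 0.0127). Pvr, the poliovirus receptor and a nectin relative, was 1.49-fold higher (adjusted p = 0.00193), and its further probe rose by 0.48 (adjusted p = 0.0176). Icam5, a molecule of dendrites, fell by 0.30 (adjusted p = 0.0232), a call that was lost with array row as a block (adjusted p = 0.0576) and without PRF replicates 1 or 2 or control replicates 1 or 3 (adjusted p from 0.0615 to 0.0763). The brightest Nfasc probe fell by 0.58 (adjusted p = 0.0169) while a further probe of this axonal molecule rose by 1.63 (adjusted p = 0.0458), so its direction is not settled. The fall missed the threshold without PRF replicate 2 or control replicates 1 or 3 (adjusted p from 0.0528 to 0.0553). The number of relatives called lower ran from 0 to 10 over 16 alternatives with at least 5 arrays.

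Of 17 tested partners inside the cell 1 was higher and 1 lower, where 29.8% of all tested genes were called, with a median of 0.055. Mpp3, a scaffold protein that binds Cadm1, was 2.75-fold higher (adjusted p = 0.00201), though with normexp its log2 difference was 0.42 instead of 1.46. Ank1, an ankyrin that ties membrane proteins to spectrin, fell by 0.73 (adjusted p = 0.0197). That call was lost without control replicates 1 or 3 or PRF replicates 1 or 2 (adjusted p up to 0.067). It was also lost with array row as a block (adjusted p = 0.0523). The Ank1 levels were low, with means of -5.30 in PRF and -4.56 in control cells. Its log2 difference was -0.31 with normexp and -1.18 with quantile normalization. Ezr, Rdx and Msn, which link the tails of Icam and Vcam proteins to actin, were among the genes that did not pass.

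Of 9 tested sheddases, inhibitors and polysialylation enzymes 1 was higher and 1 lower, with a median of -0.0024, beside the same 29.8%. Adam17, the sheddase of Vcam1, had levels of 2.11, 1.90 and 1.86 in PRF cells, against 1.94, 1.88 and 1.86 in control cells (difference 0.058, adjusted p = 0.641). The further Adam17 probe differed by 0.21, with groups that did not overlap, and did not pass (adjusted p = 0.0729). Adam10, a sheddase of L1cam, Alcam and Ncam1, differed by -0.043 (adjusted p = 0.763). Adam8, a protease of leukocytes, was 1.51-fold higher (adjusted p = 0.00987, and 0.0635 without scaling), and Bace1, the beta-secretase, was 1.20-fold lower (adjusted p = 0.0223). The call of Bace1 was lost without PRF replicates 1 or 2 or control replicates 2 or 3 (adjusted p from 0.0588 to 0.0783). St8sia2 and St8sia4, which add polysialic acid to Ncam1, were not tested because of their low signal.

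Among 21 tested regulators of Vcam1 and Icam1 transcription 5 were higher and 3 lower, with a median of 0.12. These counts were near the shares of all tested genes (16.3% higher and 13.5% lower). Without Rel, which entered the test through the PRF arrays alone, 4 of 20 were higher and 3 lower, and the median was 0.055. Tnfaip3, an inhibitor of NF-kB signalling, had levels of 0.83, 1.03 and 0.95 in PRF cells, against -0.47, -0.41 and -0.66 in control cells, and was 2.73-fold higher (adjusted p = 2.05e-04). Cebpb, a transcription factor of acute inflammation, was 1.64-fold higher (adjusted p = 0.00332), and Nfkbia, the inhibitor that holds NF-kB in the cytoplasm, 1.41-fold (adjusted p = 0.00868). The call of Nfkbia was lost without scaling (adjusted p = 0.0644) and with spike-in scaling (adjusted p = 0.0549). The NF-kB subunit genes Rel and Nfkb1, named after their values were seen, rose by 0.68 and 0.31 (adjusted p = 0.00391 and 0.0193). Rel was above background on 1 of 3 control arrays. The other subunit genes did not pass. Relb differed by 0.29 (adjusted p = 0.0929), Rela by -0.0084 (adjusted p = 0.941) and Nfkb2 by -0.12 (adjusted p = 0.233). Klf2, which is known to repress Vcam1 in endothelium, had levels of -0.89, -0.89 and -0.87 in PRF cells, against 0.16, 0.21 and 0.04 in control cells, and was 2.03-fold lower (adjusted p = 2.48e-04). The TNF receptor gene Tnfrsf1b was 1.56-fold lower (adjusted p = 0.0132), and Nfkbie, a further NF-kB inhibitor, 1.31-fold lower (adjusted p = 0.02, and between 0.0522 and 0.0703 when any single array except PRF replicate 3 was left out).

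**Figure D4:**
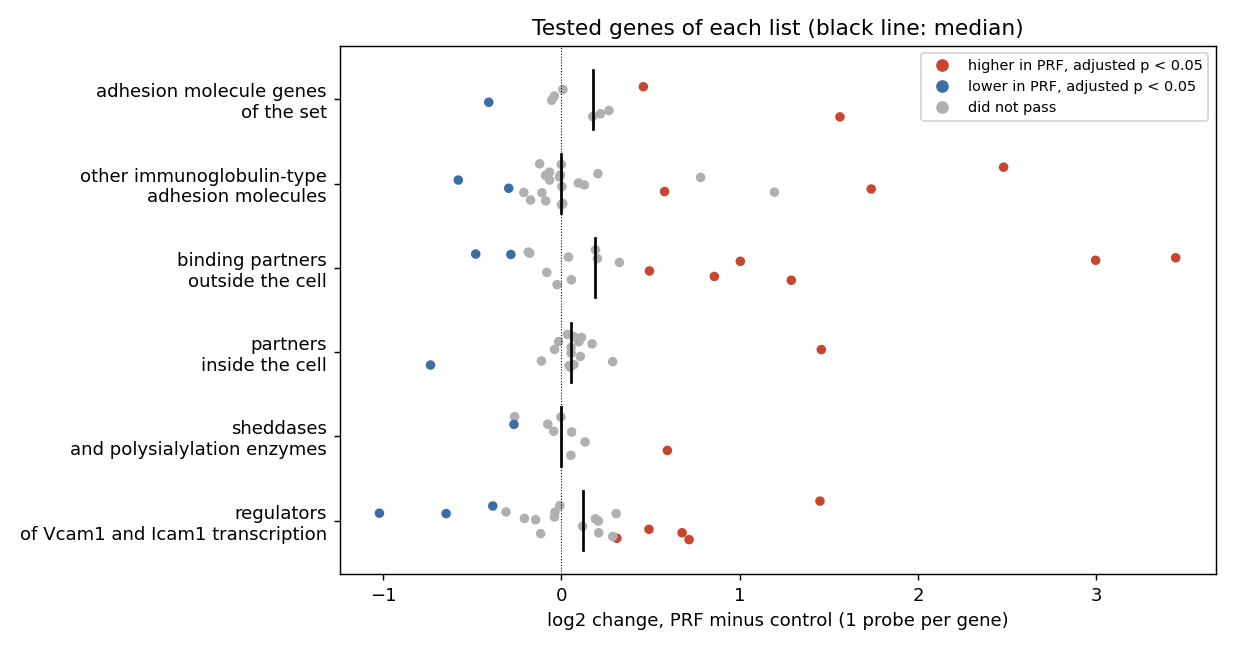
Difference between PRF and control cells, on the log2 scale, for the tested genes of the adhesion molecule set and of 5 lists of related genes. Each point is 1 gene, red and blue mark rises and falls past the adjusted threshold, grey marks genes that did not pass, and black lines are medians. The medians lie between -0.0027 and 0.19. Itgax, a binding partner outside the cell, and Cntn1, a further immunoglobulin-type molecule, were above background on no control array. Only a lower bound of their rises can be given. Over genes above background on all arrays, the medians of these lists are 0.12 and -0.0077. Among such genes the largest rise is that of Crtam, in the list of binding partners outside the cell.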

How the data were processed

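Members and lists were chosen with earlier results of these data known. The deposited intensity values are background-corrected scanner output, not normalized between arrays. Per the file headers they were written by Feature Extraction (version 10.7.3.1), which the submitters' processing notes name too. The authors' deposited series values matched these intensities for 99.5% of probes (relative tolerance 0.0001).

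Control spots and spots marked as outliers were left out, log2 signals of the same probe were averaged, and each array's 75th percentile was subtracted. No member spot was so marked. Probes were named through unversioned RefSeq accessions (32994 of 56605 named). The array design refers to an older build (mm9), so no coordinates are taken from it. Those of the promoter stretches are on build GRCm38.p6. limma 3.58.1 (lmFit, eBayes; R 4.3.3) was fitted with group as the only term. The brightest tested probe stood for a gene. On simulated arrays (34838 probes, 100 changed 1.5-fold and 100 changed 2-fold) the PRF against control fit recovered 30% and 61%, with 1 false call. The simulation changed far fewer probes than the 31.1% called in the data, so its shares do not measure the sensitivity of this fit. Named list genes are up to 3 rises and 3 falls per list among called, non-overlapping genes above background on all 6 arrays, plus Itga4, Itgb1, Itgal, Itgb2, Adam10 and Adam17; those of the marker lists are mostly given as counts. Alternatives were other scalings, normexp (offset 50), filters, array row, a replicate block and leaving out each array. The planned comparison of protein sequences was not made here.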

Additional observations from a re-analysis of the deposited data

How the results depend on the processing

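Vcam1 kept its rise and its call under 17 of 18 alternatives, the brighter Alcam probe under 15 and Mcam under 14; the dimmer Alcam probe did so under 5. Members called higher numbered 2, with 1 without scaling, 1 within array row 1 and 0 within row 2, and 2 in each fit that left out 1 array. Members called lower numbered 1, with 0 within either row and between 0 and 1 when each array was left out in turn. Member probes called numbered 4, with 2 without scaling, 1 and 0 within rows 1 and 2, and between 2 and 4 with 1 array left out. All probes called numbered 10833, with 3209 and 162 within rows 1 and 2, where 3 arrays remain, and between 7245 and 10928 with 1 array left out. The members' median of 0.18 was 0.067 with quantile normalization, 0.035 without scaling, 0.12 with the median of tested probes, -0.018 with spike-in scaling, 0.091 with normexp, 0.12 and 0.070 within rows 1 and 2, and from 0.12 to 0.19 with 1 array left out.

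Rises made up 59.2% of called probes, and between 28.9% (spike-in) and 49.5% (median of tested probes) under the 5 other scalings. With the replicate number as a block 9422 probes were called, and among members the dimmer Alcam probe alone lost its call (adjusted p = 0.0771). Same-numbered arrays deviated with correlations of 0.15, -0.084 and 0.046. Neither PRF replicate 2 nor PRF replicate 3 correlated best with its own number, so the numbers were not taken as pairs. Itgb3 missed the threshold without PRF replicate 2 (adjusted p = 0.0532).

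Differences that had not passed changed sign as follows, and the cause was not tested. Without scaling, Ncam1 (NM_010875) gave -0.071 and -0.043, L1cam -0.010, Cadm1 -0.13 and -0.086, and Adam17 -0.083. With spike-in scaling, these Ncam1 probes gave -0.12 and -0.096, L1cam -0.018 and -0.063, Cadm1 -0.19 and -0.14, Itgb1 -0.0026 and Adam17 -0.14. Cadm1 gave -0.045 with the median of tested probes, -0.10 with normexp and -0.059 with quantile normalization. L1cam gave -0.018 and -0.050 with normexp and -0.0024 and -0.0096 with quantile normalization, and Itgb2 -0.085 and -0.26. Within row 1 Ncam1 (NM_001113204) gave 0.026 and 0.14, Cadm1 -0.14, Adam10 0.090 and Adam17 -0.0037. Within row 2 Ncam1 (NM_010875) gave -0.089 and -0.022, Cadm1 -0.025 and Itgb2 -0.12. With each array left out in turn, the ranges were -0.071 to 0.0031 for the brightest Ncam1 probe, -0.0038 to 0.20 for an NM_010875 probe, -0.12 to 0.035 for Bcam, -0.071 to 0.077 for Cadm1, -0.084 to 0.033 for Adam10 and -0.018 to 0.11 for Adam17.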

Other observations

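Some genes of the lists were above background on all PRF arrays and on no control array, so only a lower bound of their rise can be given, and they were named after their values were seen. The bound sets the mean of the PRF arrays against the mean of, per control array, the higher of the lowest level of any probe above background and the probe's own level. Itgax, an integrin chain of dendritic cells and macrophages that binds Icam1, was at least 6.88-fold higher (level means -2.99 in PRF and -6.43 in control cells, adjusted p = 0.00318). Cntn1, a contactin of axons and glia, was at least 1.99-fold higher (-4.78 in PRF and -7.26 in control cells, adjusted p = 0.0033). Kdr, the VEGF receptor of endothelium, was at least 2.40-fold higher (-4.51 in PRF and -7.92 in control cells, adjusted p = 6.43e-05), and Cldn11, a claudin of myelin, at least 8.63-fold (-2.66 in PRF and -6.73 in control cells, adjusted p = 1.79e-04). The filter let such genes in only because they were bright after PRF.

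In the other marker lists, 1 of 4 tested neuronal markers was called, where 29.8% of all tested genes were. This was Snap25, 1.96-fold higher (adjusted p = 0.0127). Nefl differed by -0.29 (adjusted p = 0.058), Tubb3 by -0.14 (adjusted p = 0.35) and Map2 by 0.074 (adjusted p = 0.485). The median of the 4 was -0.033, and Rbfox3, Stmn2 and Gad1 were above background on no array. Among the astrocyte markers 1 of 3 Glul probes was called, 1.22-fold higher, while the further probes differed by 0.0095 (adjusted p = 0.966) and -0.024 (adjusted p = 0.822). That call was lost without scaling (0.15, adjusted p = 0.335) and with spike-in scaling (0.098, adjusted p = 0.374). Among oligodendrocyte markers Mbp was 1.99-fold higher (adjusted p = 0.00847), Mog 1.32-fold lower (adjusted p = 0.0202) and Sox10 1.28-fold lower (adjusted p = 0.0451). The Mbp probe was dim, with a control mean of -4.04, and with normexp its log2 difference was 0.36 instead of 0.99. Leaving out each array in turn, the call was lost in 4 of 6 fits for Glul, in 4 for Mog, in 5 for Sox10 and in 5 for Col1a1 of the mural and fibroblast list.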
